A study of Homo sapiens with 6 samples.

Results

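Membrane trafficking coat and sorting genes are described here through the C-to-U edits that RBFOX2-INSCRIBE placed on their mRNA isoforms in HEK293T cells, a human embryonic kidney line. The members are the protein-coding genes of GENCODE release 44 whose names begin with SEC, VPS or SNX followed by a digit, together with COPA, COPB1, COPB2, COPE, COPG1, COPG2, COPZ1 and ARCN1. GENCODE holds 102 such genes, and 72 of them, with 94 isoforms, had at least 1 edit listed in at least 1 of the 6 libraries, among 7684 genes and 9831 isoforms listed in all. The other 30, among them SEC24C, SEC61G, VPS28 and VPS52, have no value and were not analysed here. In RBFOX2-INSCRIBE (2 libraries, replicates 1 and 2), fixed cells received a rabbit antibody against RBFOX2 and then Apo1-Nb, a purified fusion of the cytosine deaminase APOBEC1 with a nanobody that binds rabbit antibodies. The enzyme-only control (2 libraries, titled replicates 2 and 3) received Apo1-Nb without the antibody, and the buffer-only control (2 libraries, replicates 1 and 2) received neither. The samples are titled HEK293T, whereas their cell line field reads HEK293XT; all 6 are total RNA of this line, with no genetic change stated, read end to end on a PacBio instrument. The edits come with no expression values, so the line could not be checked against marker genes. Nothing in the labels says that replicates came from separate cultures, so a test over these libraries measures a spread that may be technical.

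Proteins move between the endoplasmic reticulum (ER), the Golgi and endosomes in vesicles or tubules that a coat shapes and fills with cargo. COPII coats, built of SEC proteins, leave the ER, and COPI coats return cargo from the Golgi. On endosomes, retromer and the sorting nexins retrieve receptors, the ESCRT complexes bud vesicles inward towards the lysosome, and tethers such as HOPS join membranes before they fuse. RBFOX2 is an RNA-binding protein that regulates splicing and binds the hexamer UGCAUG, and APOBEC1 changes a cytosine to a uracil in RNA close to where it is held, so that edits are meant to mark RNA near the antibody's target.

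The first set of sequences is shown because these UGCAUG copies in exons had the most edited cytosines within 50 nt in RBFOX2-INSCRIBE (at least 2 in each of its libraries). They were read from the GENCODE transcript sequences, run 5′ to 3′ on the transcript strand, and carry the hexamer in capitals; the coordinates are those of the hexamer on hg38.
SEC24B, coding sequence, chr4:109525348-109525353, plus strand: gcuucucuagcuUGCAUGuccaaguauucu
VPS29, 3′ UTR, chr12:110491695-110491700, minus strand: uuccaaaaguagUGCAUGuggagaaagaau
SEC22B, 3′ UTR, chr1:120155432-120155437, minus strand: uugggaauuuugUGCAUGaaauaugaaguu
SNX2, 3′ UTR, chr5:122829832-122829837, plus strand: uuuauuacaagcUGCAUGuccugacccucu
SEC23A, 3′ UTR, chr14:39032067-39032072, minus strand: aaugauuguacuUGCAUGaacacaaucaua
SEC23A, coding sequence, chr14:39067214-39067219, minus strand: uuaccaaagacaUGCAUGgacaguuuaaaa
VPS35, 3′ UTR, chr16:46659927-46659932, minus strand: agaauauauuaaUGCAUGuuugagaauuuu
VPS35, coding sequence, chr16:46661796-46661801, minus strand: auagcaaaucagUGCAUGgaccccucucua

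A copy in the 3′ UTR of VPS37A, whose sequence is not shown, belongs to the same set. The second set holds the cytosines listed in both RBFOX2-INSCRIBE libraries and in none of the other 4 that had the highest mean edit fraction, which is the share of reads of an isoform that carry the edit. The edited C is in capitals.
SNX5, non-coding isoform ENST00000606570, chr20:17944379, minus strand: gaugcuuugcagguaCauaaugugaaauua
SEC14L1, 3′ UTR, chr17:77215167, plus strand: uaaugaaggaaucuuCacagaagcaaauca
SEC23A, 3′ UTR, chr14:39032200, minus strand: uaccuuuaaaguuuaCuuguagcaaauaug
VPS4B, 3′ UTR, chr18:63390498, minus strand: ggaugggcaauaaaaCagcaaagagcuuug
VPS35, 3′ UTR, chr16:46660122, minus strand: uuuguuuguuugcuuCauuguugauugugu
VPS37C, 3′ UTR, chr11:61130772, minus strand: aaaacaccaucacuaCauuaggggcaauuu
SNX5, 3′ UTR, chr20:17941742, minus strand: aacaaauaaugugguCugcuuuauaagaug
VPS41, coding sequence, chr7:38898107, minus strand: ggucccuugaagaauCuacagaugagucug

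On the transcript strand, RBFOX2-INSCRIBE listed 1794 and 1979 distinct edited Cs of these genes, the enzyme-only control 736 (replicate 2) and 1441 (replicate 3), and the buffer-only control 574 and 554. These sites made up between 0.774% and 0.960% of all sites of a library, so the genes took a similar share of each. The enzyme-only libraries differed from each other by more than replicate libraries of the other groups, and enzyme-only replicate 2 lay nearer to the buffer-only libraries than to its own replicate. The median edit fraction at member sites was 0.917% and 0.820% in RBFOX2-INSCRIBE, 0.943% and 0.847% in the enzyme-only control and 0.714% and 0.806% in the buffer-only control. The files hold fractions without read numbers, and a C can go unlisted because few reads covered its isoform. A small fraction needs many reads. In SEC23A the smallest fraction listed was 0.840% and 0.763% in RBFOX2-INSCRIBE, 2.78% and 0.794% in the enzyme-only control, and 0.813% and 0.971% in the buffer-only control. Enzyme-only replicate 2 also had the highest such minimum for VPS37A and SEC24A. Whether that library had fewer reads on these genes was not tested. More edited Cs from a gene and more RNA of that gene, or more reads in the library, cannot be told apart here.

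For each gene the measure was editsC, its distinct edited Cs as a percent of all Cs in the exons of its listed isoforms. Of the 72 genes, 47 were edited in all 6 libraries and 7 in a single library, and 52 had enough edited Cs (a mean of at least 5 over the 4 libraries compared) to enter at least 1 of 3 comparisons. A gene could enter through the group in which it was high. Over the Cs of all members together, editsC was 2.48% and 2.74% in RBFOX2-INSCRIBE, 1.02% and 1.99% in the enzyme-only control, and 0.794% and 0.767% in the buffer-only control. Across single genes it spanned a wide range, from SNX4, a sorting nexin that bends endosomal membrane, with 16.8% and 17.0% in RBFOX2-INSCRIBE, down to 6 genes with no edited C in either RBFOX2-INSCRIBE library (SEC61B, SNX8, SNX30, VPS16, VPS26C and VPS33B).

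**Figure D1:**
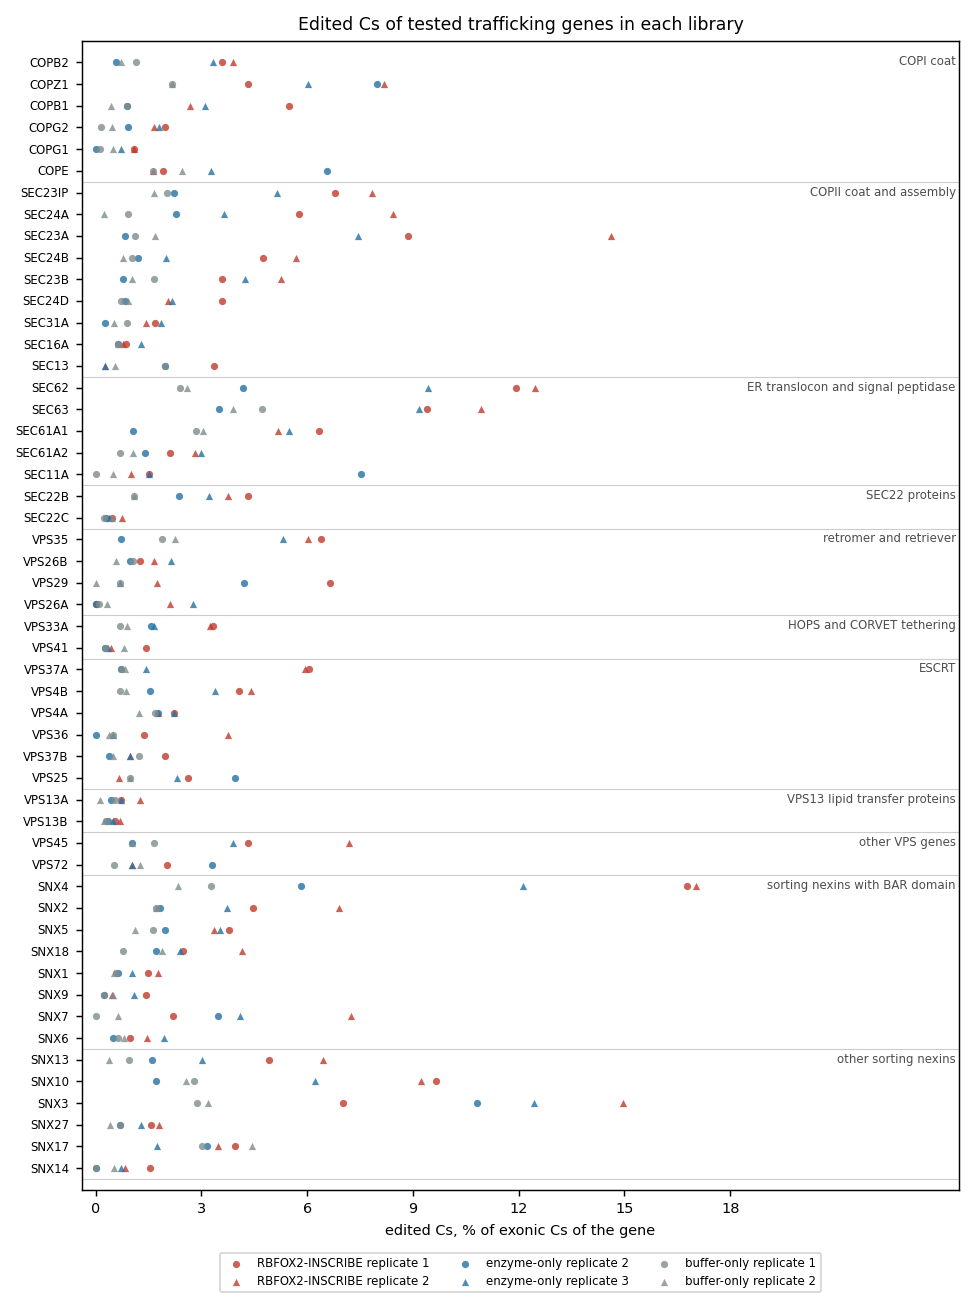
Edited Cs as a percent of the exonic Cs of each of the 52 genes tested, by library (red, RBFOX2-INSCRIBE; blue, enzyme-only; grey, buffer-only; circle and triangle are the lower and the higher replicate number), grouped by role. Red points lie to the right of grey points for most genes, and the blue circles of enzyme-only replicate 2 lie left of the blue triangles for most of them.

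Each gene was compared between groups with limma on the log2 of edited Cs per C, fitted on all genes and adjusted over all of them, and a gene was called at an adjusted p under 0.05. Against the enzyme-only control, no trafficking gene of 52 was called (0.118% of the 5092 genes tested were). An unadjusted p under 0.05 was found for 9 of the 52, beside 874 of the 5092. The log2 difference was above 0 for 42 of the 52 (85.5% of all genes), with a median of 0.88, beside a median of 0.85 over all genes. When the libraries were scaled to the same total of edited Cs, the median over all genes was 0.02, the median of the trafficking genes was 0.09, and 29 of 52 were above 0 (51.4% of all). Values on that scale are called scaled differences below, and they read a gene against the library as a whole. For 27 of the 52 genes the RBFOX2-INSCRIBE pair lay wholly above the enzyme-only pair, where 51.8% of all genes did so. Enzyme-only replicate 3 decided the count of calls: without it, 21 of 53 genes were called, beside 32.0% of all genes, among them VPS36, SNX14, VPS37A, COPG1 and SEC23A as higher and COPE and SEC11A as lower in RBFOX2-INSCRIBE, and the lone enzyme-only library left is then assumed to vary like the RBFOX2-INSCRIBE pair. The median was 1.42 without that library and 0.33 without enzyme-only replicate 2. With 2 libraries a group, an exact permutation test of a single value cannot give a two-sided p below 0.33.

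Against the buffer-only control, 31 of 49 trafficking genes were called higher in RBFOX2-INSCRIBE and none lower, where 61.1% of the 4807 genes tested were called and 61.0% were called higher. The median log2 difference of the members was 1.68, beside 1.54 over all genes, and the median scaled difference was 0.21, beside 0.01. No member of 50 was called on the scaled values, where 58 of 4854 genes were. At an unadjusted p under 0.05 were 12 of these members, beside 1269 of the 4854 genes. The calls also needed both RBFOX2-INSCRIBE libraries: without replicate 1, 0 of 45 genes were called (18 at an unadjusted p under 0.05), and without replicate 2, 0 of 47 were (17), and in both cases no gene of the whole table was. Both RBFOX2-INSCRIBE libraries lay above both buffer-only libraries for 41 of 49 genes, beside 80.6% of all genes. The share of trafficking genes called was thus close to that of all genes.

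The enzyme-only and buffer-only controls differ by Apo1-Nb alone. For 21 of 44 members both enzyme-only libraries lay above the buffer-only pair (44.3% of all genes), and for none below. SNX7, a sorting nexin with a membrane-bending BAR domain, was the only call among the 44, beside 0.546% of the 4216 genes tested. An unadjusted p under 0.05 was found for 10 of the 44 members, beside 633 of the 4216 genes. The median log2 difference was 0.78 for the members and 0.69 for all genes. On the scaled values it was 0.07 and 0.02, with no call among 45 members or among the 4175 genes tested. An unadjusted p under 0.05 was then found for 4 of the 45, beside 334 of the 4175. The single call was absent without either buffer-only library or enzyme-only replicate 2, and leaving out enzyme-only replicate 3 made SNX7 too sparse to be tested. With each library left out, the median ranged from 0.37, with enzyme-only replicate 3 out, to 1.38, with enzyme-only replicate 2 out. Each group takes part in 2 of the 3 comparisons, so their results share samples.

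**Figure D2:**
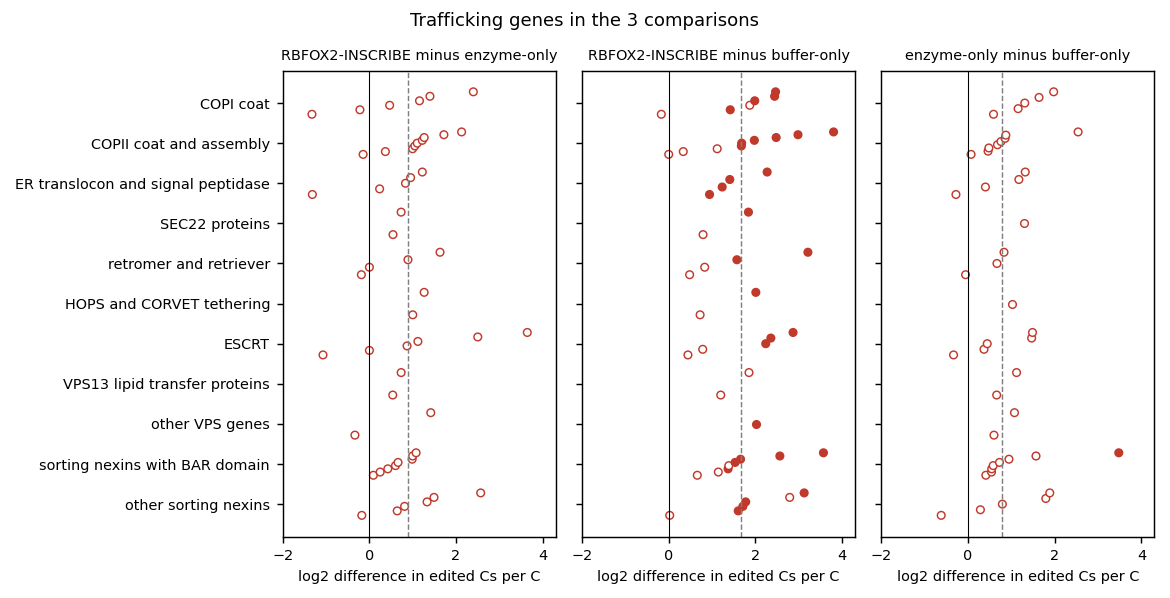
Log2 difference in edited Cs per C for the trafficking genes tested in each of the 3 comparisons, by role group; filled points are genes called by limma at an adjusted p under 0.05, the dashed line is the median of the members and the solid line is 0. The first panel has no filled point, the second has 31 and the third has 1.

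The COPI coat is a complex of 7 kinds of subunit that 8 genes of this set encode, since the gamma subunit has 2 paralogs. Together its genes had 134 and 133 edited Cs in RBFOX2-INSCRIBE, 83 and 123 in the enzyme-only control and 39 and 38 in the buffer-only control. Of 6 subunits tested, COPB1, COPB2, COPG2 and COPZ1 were called higher in RBFOX2-INSCRIBE than in the buffer-only control, and none in the other comparisons. COPB2, the beta-prime subunit that reads retrieval signals on cargo, had 44 and 48 edited Cs in RBFOX2-INSCRIBE, 7 and 41 in the enzyme-only control, and 14 and 9 in the buffer-only control. Its log2 difference was 1.98 (SE 0.40, limma adjusted p = 0.00512) against the buffer-only control and 1.40 (SE 0.73, limma adjusted p = 0.298) against the enzyme-only control. Both RBFOX2-INSCRIBE libraries stood above all others for this gene, while the enzyme-only libraries stood on either side of the buffer-only ones.

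COPB1, the beta subunit, had 37 and 18 edited Cs in RBFOX2-INSCRIBE, 6 and 21 in the enzyme-only control and 6 and 3 in the buffer-only control. COPG2 and COPZ1, the second gamma subunit and a zeta subunit, were also edited in the enzyme-only control. For COPB1, COPG2 and COPZ1 alike, the groups of RBFOX2-INSCRIBE and the enzyme-only control overlapped. COPG2 had 13 and 11, 6 and 12, and 1 and 3 edited Cs in the same order of groups. COPZ1 had 20 and 38, 37 and 28, and 10 and 10, with a log2 difference of 1.42 (SE 0.37, limma adjusted p = 0.013) against the buffer-only control and -0.22 (SE 0.64, limma adjusted p = 0.838) against the enzyme-only control.

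COPG1, the first gamma subunit, ranked among the 5 largest differences from the enzyme-only control without passing the test. It had 9 and 9 edited Cs in RBFOX2-INSCRIBE, 0 and 6 in the enzyme-only control and 1 and 4 in the buffer-only control (log2 difference 2.40, SE 1.19, limma adjusted p = 0.283, against the enzyme-only control; scaled 2.05). COPE, the epsilon subunit, ran the other way, with 7 and 6 edited Cs in RBFOX2-INSCRIBE, 24 and 12 in the enzyme-only control and 6 and 9 in the buffer-only control. Among the 52 genes tested it was the only one whose RBFOX2-INSCRIBE libraries both lay below the enzyme-only pair (3.57% of all genes did), with a log2 difference of -1.33 (SE 0.69, limma adjusted p = 0.296; scaled -2.11). Of the members too sparse to test, SEC11C, SNX8 and VPS37C also lay below, at 0 or 1 edited C in each RBFOX2-INSCRIBE library. COPA and ARCN1, the alpha and delta subunits, had between 0 and 4 edited Cs in a library and were too sparse to test.

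The COPII coat held the member with the largest difference from the buffer-only control. Of its 9 genes tested, SEC23A, SEC23B, SEC23IP, SEC24A, SEC24B and SEC24D were called higher there, and SEC31A, SEC16A and SEC13 were not. Their counts in RBFOX2-INSCRIBE summed to 398 and 483 edited Cs (4.29% and 5.21% of Cs), against 115 and 292 in the enzyme-only control and 107 and 82 in the buffer-only control. The median log2 difference of the 9 from the enzyme-only control was 1.10, and the scaled median was 0.29.

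SEC24A, an inner-coat protein that selects cargo, had 76 and 111 edited Cs in RBFOX2-INSCRIBE, 30 and 48 in the enzyme-only control and 12 and 3 in the buffer-only control. The 3 groups did not overlap. Its difference from the buffer-only control was the largest among the called members (log2 3.80, SE 0.62, limma adjusted p = 0.00219; scaled 2.38), and that of the enzyme-only control from the buffer-only control was 2.54 (SE 0.73, limma adjusted p = 0.0635). RBFOX2-INSCRIBE differed from the enzyme-only control by 1.26 (SE 0.67, limma adjusted p = 0.300; scaled 0.45).

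SEC23A (chr14:39031919-39109646, minus strand), the partner of SEC24 in the inner coat and the activator of the GTPase SAR1, had 63 and 104 edited Cs in RBFOX2-INSCRIBE, 6 and 53 in the enzyme-only control and 8 and 12 in the buffer-only control. In editsC this was 8.85% and 14.6%, then 0.843% and 7.44%, then 1.12% and 1.69%. Both RBFOX2-INSCRIBE libraries were above all others, and the enzyme-only libraries differed from each other more than the buffer-only libraries did. The log2 difference was 2.98 (SE 0.36, limma adjusted p = 0.000734; scaled 1.53) against the buffer-only control and 2.13 (SE 0.73, limma adjusted p = 0.175; scaled 1.34) against the enzyme-only control.

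SEC24B, a second cargo adaptor, had 55 and 66 edited Cs in RBFOX2-INSCRIBE, 14 and 23 in the enzyme-only control and 12 and 9 in the buffer-only control. SEC23IP, a SEC23-binding protein at ER exit sites, had 98 and 113, 32 and 74, and 29 and 24. For both genes the RBFOX2-INSCRIBE libraries lay above the other 4, and the enzyme-only libraries above the buffer-only ones. SEC13, an outer-coat subunit that also serves in the nuclear pore, varied within groups, with 12 and 1, 7 and 1, and 7 and 2 edited Cs, and its difference from the buffer-only control was 0.00 (SE 1.01). SEC16A, the scaffold of ER exit sites, had 12 and 11, 9 and 18, and 9 and 9.

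The ER translocon and signal peptidase genes had the highest editsC of the role groups in RBFOX2-INSCRIBE (7.48% and 7.85%), and all 4 that were tested against the buffer-only control were called higher in RBFOX2-INSCRIBE, but their median scaled difference was -0.12. SEC62, which helps post-translational import into the ER, had the most edited Cs of any member, 134 and 140 in RBFOX2-INSCRIBE, 47 and 106 in the enzyme-only control and 27 and 29 in the buffer-only control. Its log2 difference from the buffer-only control was 2.27 (SE 0.23, limma adjusted p = 0.000546; scaled 0.79). SEC63, its J-domain partner, had 118 and 137, 44 and 115, and 59 and 49. The enzyme-only libraries of SEC63 fell on either side of the buffer-only ones, and its scaled difference of RBFOX2-INSCRIBE from the buffer-only control was -0.25 where the unscaled one was 1.23 (SE 0.23, limma adjusted p = 0.00357).

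SEC61A1, the pore of the translocon, had 60 and 49 edited Cs in RBFOX2-INSCRIBE, 10 and 52 in the enzyme-only control and 27 and 29 in the buffer-only control. SEC11A, a catalytic subunit of the signal peptidase that trims imported proteins, had 3 and 2, 15 and 3, and 0 and 1, so that its enzyme-only count rested on replicate 2 (log2 difference of RBFOX2-INSCRIBE from the enzyme-only control -1.32, SE 0.73, limma adjusted p = 0.316). SEC61B was listed in enzyme-only replicate 2 alone, with 4 edited Cs. SEC22B, a SNARE that fuses vesicles between the ER and the Golgi, had 55 and 48, 30 and 41, and 14 and 14, with groups that did not overlap. It has near-identical pseudogene copies, and how reads were shared with them is not known here, so its values are uncertain. SEC22C had 6 and 10, 4 and 5, and 3 and 6.

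Retromer, the coat that returns receptors from endosomes, was edited unevenly among its subunits. VPS35, its scaffold, had 88 and 83 edited Cs in RBFOX2-INSCRIBE, 10 and 73 in the enzyme-only control and 26 and 31 in the buffer-only control. It was called higher in RBFOX2-INSCRIBE than in the buffer-only control (log2 1.57, SE 0.29, limma adjusted p = 0.00341; scaled 0.09), and differed from the enzyme-only control by 1.63 (SE 0.72, limma adjusted p = 0.251), where replicate 2 of that control lay below both buffer-only libraries. VPS29, a small subunit that binds VPS35, had 19 and 5, 12 and 2, and 2 and 0, and was called against the buffer-only control (log2 3.21, SE 0.89, limma adjusted p = 0.0175; scaled 2.30). The libraries of VPS29 differed several-fold within RBFOX2-INSCRIBE and within the enzyme-only control, and the call was lost without buffer-only replicate 2 (log2 2.05).

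VPS26A, the cargo-facing arm, was listed with 0 and 20 edited Cs in RBFOX2-INSCRIBE, 0 and 26 with the enzyme alone and 1 and 3 with buffer. A library at 0 here stood beside a replicate with 20 or more, and its log2 difference from the enzyme-only control was -0.19 with a standard error of 2.01. VPS26B, its paralog, had 13 and 17, 10 and 22, and 11 and 6, with overlapping groups in the comparison with the enzyme-only control.

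The ESCRT genes held the member with the largest difference from the enzyme-only control. VPS37A, a subunit of ESCRT-I, which sorts ubiquitinated cargo, had 51 and 50 edited Cs in RBFOX2-INSCRIBE, 6 and 12 in the enzyme-only control and 6 and 7 in the buffer-only control. The RBFOX2-INSCRIBE libraries stood far above the other 4, which were close to each other. The log2 difference from the enzyme-only control was 2.50 (SE 0.71, unadjusted p = 0.00056 in limma, adjusted p = 0.113; scaled 1.71), and that from the buffer-only control was 2.87 (SE 0.35, limma adjusted p = 0.000774; scaled 1.43). The enzyme-only control differed from the buffer-only control by 0.37 (SE 0.77, limma adjusted p = 0.828).

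VPS36, a subunit of ESCRT-II that binds ubiquitin, had 11 and 30 edited Cs in RBFOX2-INSCRIBE, 0 and 4 in the enzyme-only control and 4 and 3 in the buffer-only control. Its difference from the enzyme-only control was the largest of the members tested (log2 3.64, SE 1.05, limma adjusted p = 0.113; scaled 3.29), though 1 of the 2 enzyme-only libraries listed none, and the fitted value there depends on the 0.5 added to each count. VPS4B, an ATPase that disassembles ESCRT-III, had 24 and 26, 9 and 20, and 4 and 5, and was called against the buffer-only control (log2 2.36, SE 0.38, limma adjusted p = 0.00197). Its paralog VPS4A had 25 and 20, 20 and 25, and 19 and 14, with a log2 difference of 0.44 (SE 0.41, limma adjusted p = 0.361) from the buffer-only control and overlap with the enzyme-only control. VPS25, another ESCRT-II subunit, had 8 and 2, 12 and 7, and 3 and 3 edited Cs (-1.07 against the enzyme-only control, SE 0.73, limma adjusted p = 0.390). VPS37B, a paralog of VPS37A, had 16 and 8, 3 and 8, and 10 and 4.

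Editing was sparser in the tethers of HOPS and CORVET (editsC 0.866% and 0.798% in RBFOX2-INSCRIBE) and in the VPS13 lipid transfer proteins (0.376% and 0.690%). VPS33A, which helps SNAREs assemble within HOPS, had 34 and 33 edited Cs in RBFOX2-INSCRIBE, 16 and 17 in the enzyme-only control and 7 and 9 in the buffer-only control. The 2 libraries of each group were close and the groups did not overlap (log2 2.01, SE 0.40, limma adjusted p = 0.00468, against the buffer-only control; 1.00, SE 0.71, limma adjusted p = 0.405, against the enzyme-only control). VPS41, a HOPS subunit on late endosomes, had 16 and 5, 3 and 4, and 3 and 9. VPS13A and VPS13B, long proteins that bridge membranes and carry lipids, had editsC of at most 1.25% in any library, and neither was called in any comparison. VPS45, an endosomal fusion factor, had 21 and 35, 5 and 19, and 8 and 5, and was called against the buffer-only control (log2 2.01, SE 0.40, limma adjusted p = 0.00478). VPS72, named for a yeast sorting mutant but a subunit of chromatin remodelling complexes, had 8 and 4, 13 and 4, and 2 and 5.

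Sorting nexins bind endosomal lipids through a PX domain, and some also carry a BAR domain. Of 8 BAR nexins tested, SNX1, SNX2, SNX4, SNX5 and SNX7 were called higher in RBFOX2-INSCRIBE than in the buffer-only control, with a median log2 difference over the 8 of 1.46 and a scaled median of 0.01. SNX7 had 7 and 23 edited Cs in RBFOX2-INSCRIBE, 11 and 13 in the enzyme-only control and 0 and 2 in the buffer-only control. The libraries that received Apo1-Nb were all above the buffer-only ones, and the 2 groups that received it overlapped. SNX7 differed from the buffer-only control by 3.57 (SE 0.87, limma adjusted p = 0.0106; scaled 2.64) in RBFOX2-INSCRIBE and by 3.48 (SE 0.74, limma adjusted p = 0.00167; scaled 3.05) in the enzyme-only control; without the buffer-only library at 0 both calls were lost (2.41 and 2.32).

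SNX4, which recycles receptors, had the highest editsC in RBFOX2-INSCRIBE, with 72 and 73 edited Cs, against 25 and 52 in the enzyme-only control and 14 and 10 in the buffer-only control (log2 2.56, SE 0.24, limma adjusted p = 0.000531, against the latter; scaled 1.10). SNX2, which pairs with SNX5 or SNX6 to form tubules, had 49 and 76, 20 and 41, and 19 and 19. In both genes the RBFOX2-INSCRIBE libraries were above the other 4. SNX6, which pairs with SNX1 or SNX2, had few edited Cs, 6 and 9, 3 and 12, and 4 and 5, and was called in no comparison.

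Among the other nexins, SNX3, SNX10, SNX13 and SNX27 were called against the buffer-only control. SNX13, which also carries an RGS domain, had 52 and 68 edited Cs in RBFOX2-INSCRIBE, 17 and 32 in the enzyme-only control and 10 and 4 in the buffer-only control (log2 3.13, SE 0.50, limma adjusted p = 0.00195; scaled 1.69). Its 3 groups did not overlap. SNX3, a cargo adaptor of retromer, had 22 and 47, 34 and 39, and 9 and 10, with both groups that received Apo1-Nb above the buffer-only control and overlapping each other. The enzyme-only control differed from the buffer-only control by 1.89 (SE 0.59, limma adjusted p = 0.0954) for SNX3.

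SNX17, an adaptor for integrin and LRP1 recycling, had 25 and 22 edited Cs in RBFOX2-INSCRIBE, 20 and 11 in the enzyme-only control and 19 and 28 in the buffer-only control. The buffer-only libraries were on either side of the RBFOX2-INSCRIBE ones, and the difference between those groups was 0.02 (SE 0.31, limma adjusted p = 0.952) unscaled and -1.44 scaled. SNX14, an ER protein at contact sites with lipid droplets, had 15 and 8, 0 and 7, and 0 and 5 (log2 2.57, SE 1.21, limma adjusted p = 0.267, against the enzyme-only control; scaled 2.22).

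A list of 49 other genes of the same routes (ARF and RAB GTPases, adaptors, cargo receptors of the TMED and KDEL families, further ESCRT subunits and others), chosen by their roles, gave a similar picture. Of these, 43 were listed. None of 33 was called against the enzyme-only control (median log2 difference 0.81, scaled -0.05), where 0.118% of all genes were. Against the buffer-only control, 24 of 32 were called higher in RBFOX2-INSCRIBE and none lower (median 1.41, scaled -0.14), where 61.0% of all genes were called higher. None of 31 was called between the controls, where 0.546% of all genes were. SAR1A, the GTPase that starts COPII assembly, had 74 and 114 edited Cs in RBFOX2-INSCRIBE, 21 and 43 in the enzyme-only control and 13 and 26 in the buffer-only control. TMED2, a cargo receptor between the ER and the Golgi, had 175 and 162, 59 and 134, and 98 and 85, with enzyme-only replicate 2 below both buffer-only libraries. Clathrin light chain b, from CLTB, had the lowest difference from the enzyme-only control, with 2 and 2 edited Cs in RBFOX2-INSCRIBE, against 11 and 6 with the enzyme alone (log2 -1.79, SE 0.77, limma adjusted p = 0.236).

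Long reads assign each edit to an isoform, and 14 of the 72 genes had edits on more than 1 isoform. Per isoform, none of 57 was called against the enzyme-only control (0.0524% of all isoforms tested). Against the buffer-only control, 32 of 52 were called higher in RBFOX2-INSCRIBE (60.0% of all), and between the controls 1 of 46 was called (0.832% of all). In the comparison with the enzyme-only control, 6 of the 57 had an unadjusted p under 0.05, beside 916 of 5725 over all isoforms. Leaving out enzyme-only replicate 3 turned the first count to 20 of 55 (31.1% of all isoforms), and leaving out RBFOX2-INSCRIBE replicate 1 or 2 turned the second to 3 of 47 (6.78%) or 1 of 48 (5.05%). The isoform called between the controls was ENST00000306121, the only listed isoform of SNX7. SNX14 is the member whose isoforms were listed in different groups. Its coding isoform ENST00000369627 had 14 and 7 edited Cs in RBFOX2-INSCRIBE, was listed at 0 in both enzyme-only libraries and had 0 and 2 in the buffer-only control. Its isoform ENST00000346348 was listed with 7 edited Cs in enzyme-only replicate 3 and with none in the other 5 libraries. Whether an isoform at 0 was read without edits or was not read cannot be told apart.

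COPB2 was edited on its main coding isoform ENST00000333188 (33 and 26 edited Cs in RBFOX2-INSCRIBE, 5 and 29 in the enzyme-only control, 13 and 7 in the buffer-only control) and on ENST00000504295, which keeps an intron (11 and 22, 2 and 12, and 1 and 2). Both isoforms were called against the buffer-only control, by 1.57 (SE 0.41) and 3.05 (SE 0.62) on the log2 scale. The difference between the isoforms was not tested. SNX5 was listed on 5 isoforms, of which ENST00000606570, a non-coding isoform, had 17 and 21, 5 and 19, and 3 and 4 edited Cs, and ENST00000377768, a coding one, had 16 and 13, 8 and 9, and 11 and 4.

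The methods of the study select isoforms whose RBFOX2-INSCRIBE editsC lies above a least-squares line on the enzyme-only editsC by over 1.5 SD, after a filter on isoforms with low read coverage or an edit fraction under 0.02. The coverage filter could not be applied. In place of the other, only Cs edited in at least 2% of reads were counted here, which filters Cs and not isoforms. The SD was taken over the residuals. On these terms 4 of 35 member isoforms were selected, where 6.63% of the 3258 isoforms that entered were. With no minimum edit fraction 1 of 56 was selected (5.71% of all). The 4 selected at the minimum of 2% were SNX5 ENST00000484809, COPB2 ENST00000504295, VPS37A ENST00000324849 and SEC23A ENST00000307712. At that minimum, SEC23A had 18 and 9 edited Cs in RBFOX2-INSCRIBE, 6 and 2 in the enzyme-only control and 0 and 1 in the buffer-only control. VPS37A had 16 and 15, 6 and 2, and 0 and 2. The SNX5 isoform had 8 and 3, 1 and 1, and 1 and 2, and at all edit fractions its groups overlapped (8 and 3 against 7 and 1). Leaving out RBFOX2-INSCRIBE replicate 1 left 2 member isoforms above the line, and a threshold of 2 SD also left 2.

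The place of the edits along an isoform differed between genes. In SEC24A, 75 and 108 of the sites of RBFOX2-INSCRIBE lay in the 3′ UTR and 1 and 3 in the coding sequence, and the other libraries had the same lean, with 28 and 47 sites in the 3′ UTR in the enzyme-only control. In SEC23A, RBFOX2-INSCRIBE had 29 and 48 sites in the coding sequence and 30 and 53 in the 3′ UTR, where edit fractions reached 7.48% and 7.89%. In VPS37A it had 19 and 18 sites in the coding sequence and 30 and 29 in the 3′ UTR, against 3 and 6, and 3 and 3, in the enzyme-only control.

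**Figure D3:**
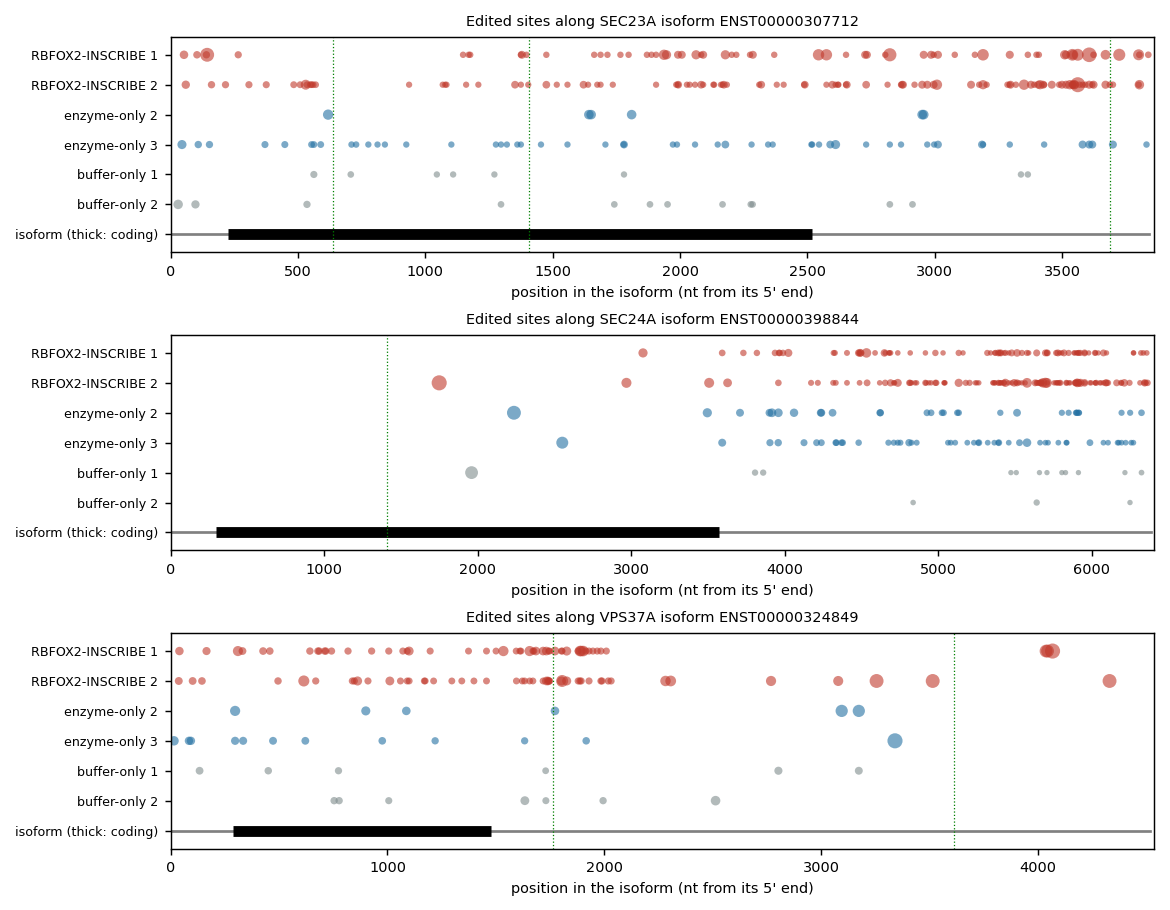
Edited sites along the isoforms of SEC23A, SEC24A and VPS37A by position from the 5′ end (nt), 1 row per library (red, RBFOX2-INSCRIBE; blue, enzyme-only; grey, buffer-only); larger points have a higher edit fraction (size is capped at 8%), the thick black bar is the coding sequence and dotted green lines are copies of the RBFOX motif. The red rows are the densest in all 3 isoforms, and in SEC24A nearly all points of every row lie past the coding sequence.

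UGCAUG was searched on the transcript strand within 50 nt of each edited C, and 90 copies lay in exons of 46 of the 72 genes. Of the 72263 exonic Cs of the members, 2.60% lay that close to a copy (2.62% of the exonic Cs of all genes), and so did 3.57% and 3.94% of the sites of RBFOX2-INSCRIBE, 2.72% and 2.71% of those of the enzyme-only control and 2.44% and 2.89% of those of the buffer-only control. The Wilson 95% intervals of these shares, which cover counting error of sites only and take neighbouring sites as independent, were 2.80 to 4.53% and 3.17 to 4.89% in RBFOX2-INSCRIBE, so both lay above 2.60%. In the enzyme-only control they were 1.77 to 4.17% and 1.99 to 3.68%, and in the buffer-only control 1.46 to 4.06% and 1.79 to 4.64%. The intervals of RBFOX2-INSCRIBE overlapped those of the controls. Cs of the same isoform and region gave an expected share of 2.92% in RBFOX2-INSCRIBE replicate 1, inside its interval. In replicate 2 the expected share was 3.08%, below its interval.

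Divided by the share of all Cs, the ratio was 1.44 ± 0.10 (SD, n = 2) in RBFOX2-INSCRIBE, 1.04 ± 0.0035 in the enzyme-only control and 1.02 ± 0.12 in the buffer-only control. Over all genes it was 1.78 and 1.80 in the RBFOX2-INSCRIBE libraries, above both values of the trafficking genes (1.37 and 1.51). Set against Cs of the same isoform and region, the ratios were 1.22 and 1.28 in RBFOX2-INSCRIBE, 1.08 and 0.901 in the enzyme-only control and 0.844 and 0.984 in the buffer-only control. The RBFOX2-INSCRIBE ratios were thus lower on this background, in which isoform and region were not separated. Against all Cs, with sites edited in at least 2% of reads, the ratios were 2.30 and 1.88, then 1.32 and 1.03, then 1.24 and 1.14. Both RBFOX2-INSCRIBE libraries lay above the other 4 in each of these settings, and the ratios were not tested over libraries.

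The share of Cs edited in RBFOX2-INSCRIBE was 3.40% and 4.15% within 50 nt of a copy, 3.50% and 3.84% between 51 and 100 nt, 3.08% and 4.05% between 101 and 200 nt, and 2.40% and 2.60% beyond that or with no copy in the isoform. Beyond 200 nt it was thus lowest in both libraries. In the enzyme-only control the same shares were 1.06% and 2.07% within 50 nt, 0.620% and 2.93% between 51 and 100 nt, 0.970% and 2.14% between 101 and 200 nt, and 1.03% and 1.96% beyond 200 nt, so that its 2 libraries moved apart between 51 and 100 nt. Relative to the editsC of its library, enzyme-only replicate 3 reached 1.47 in that bin, where RBFOX2-INSCRIBE stood at 1.41 and 1.40.

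**Figure D4:**
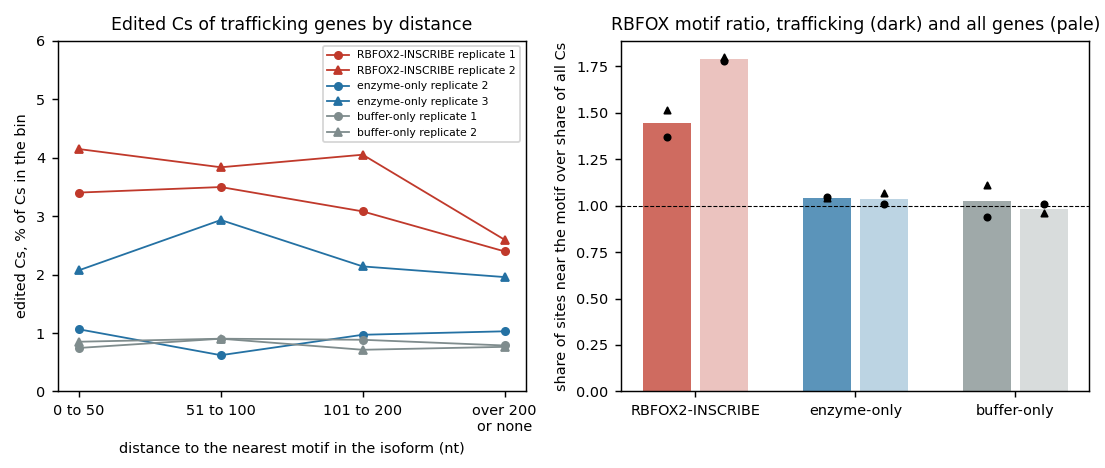
Left, percent of exonic Cs of the trafficking genes that were edited, by distance to the nearest RBFOX motif in the isoform (nt), 1 line per library. Right, share of sites within 50 nt of the motif divided by the share of all Cs, for trafficking genes (dark bars) and all genes (pale bars); bars are means of 2 libraries, points are libraries and the dashed line is 1. The red bars stand at 1.44 for trafficking genes and between 1.78 and 1.80 for all genes, and the other bars lie near 1.

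Single copies of UGCAUG behaved unlike each other. Those described here were chosen for many edited Cs in RBFOX2-INSCRIBE, which by itself favours that group over the controls. Within 50 nt of the copy in the VPS37A 3′ UTR, 7 and 8 of 17 Cs were edited in RBFOX2-INSCRIBE, 1 and 0 in the enzyme-only control and 1 and 1 in the buffer-only control. Near the SEC24B copy in the coding sequence, 4 and 3 of 24 Cs were edited in RBFOX2-INSCRIBE and none in the other 4 libraries. The VPS29 copy had 4 and 3, 1 and 0, and 0 and 0 edited Cs of 17. In these 3 both RBFOX2-INSCRIBE libraries were above the rest, as they were at 7 of the 90 copies. At 2 copies both enzyme-only libraries lay above both RBFOX2-INSCRIBE ones. The RBFOX2-INSCRIBE libraries also listed more sites than any other library. The same counts over the copies of all genes were not made, so 7 of 90 cannot be set against them. At the SNX2 copy the counts were 6 and 3, 2 and 8, and 1 and 3 of 32, so enzyme-only replicate 3 had the most. The copies of SEC22B (5 and 3, 0 and 2, 0 and 0) and of the SEC23A 3′ UTR (2 and 3, 0 and 1, 0 and 0) had more in RBFOX2-INSCRIBE than in each other library. The copies in the coding sequences of SEC23A (3 and 2 against 0 and 3) and VPS35 (2 and 3 against 0 and 3) and in the VPS35 3′ UTR (2 and 3 against 0 and 2) overlapped with the enzyme-only control.

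Members with and without a copy of UGCAUG spanned overlapping ranges. The difference from the enzyme-only group had a median of 0.99 (log2) over 34 tested members with UGCAUG in an exon and 0.51 over 18 without, with ranges of -0.22 to 3.64 and -1.33 to 1.49. Against the buffer-only control the medians were 1.67 over 34 and 1.68 over 15, and 22 and 9 genes were called. Longer transcripts hold more copies and more Cs, and this split was not tested.

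By region, the share of Cs edited in RBFOX2-INSCRIBE was 2.78% and 3.21% in 3′ UTRs, 1.97% and 2.07% in coding sequence and 1.09% and 1.12% in 5′ UTRs. In the enzyme-only control it was 1.03% and 2.08%, 0.868% and 1.66%, and 0.776% and 1.09%, in the same order, and in the buffer-only control 0.716% and 0.632%, 0.742% and 0.758%, and 0.747% and 0.661%. The 3′ UTR thus had the highest share in all 4 libraries that received Apo1-Nb, and no such lean was seen in the buffer-only libraries. The base before the edited C also differed. An A preceded 42.1% and 43.5% of sites in RBFOX2-INSCRIBE, 32.6% and 37.8% in the enzyme-only control and 20.7% and 17.5% in the buffer-only control, beside 22.7% of all Cs. A G preceded 15.6% and 14.8%, 25.4% and 19.6%, and 36.9% and 38.7%, beside 24.1% of Cs. The 3 groups did not overlap in either share, and the enzyme-only libraries lay between the others.

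**Figure D5:**
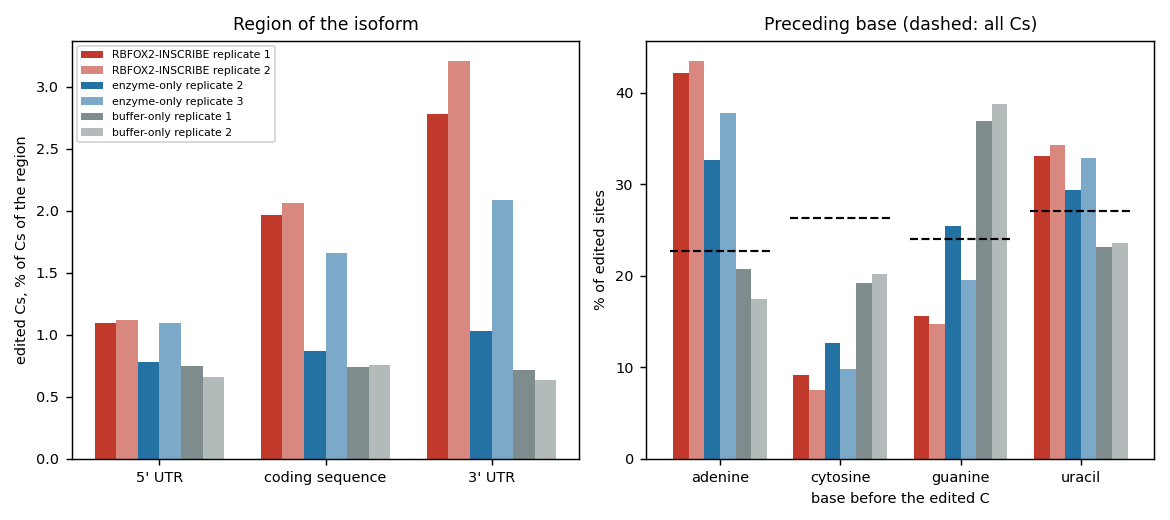
Left, percent of Cs edited in each region of the isoforms of the trafficking genes; right, percent of edited sites after each base, with the share of all Cs as a dashed line; 1 bar per library (red, RBFOX2-INSCRIBE; blue, enzyme-only; grey, buffer-only). Red bars are highest for the 3′ UTR and after adenine, and grey bars are highest after guanine.

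Few single sites recurred. Of 5896 distinct sites in any library, 4911 were listed in 1 library only; 330 were shared by both RBFOX2-INSCRIBE libraries, 81 by both enzyme-only libraries and 24 by both buffer-only libraries, and 222, 50 and 12 of these were in no other library. The groups also differed in sites listed per library, with 1794 and 1979 in RBFOX2-INSCRIBE, 736 and 1441 in the enzyme-only control and 574 and 554 in the buffer-only control. These counts of shared sites cannot be told apart from that difference. The same counts over the sites of all genes were not made. No site was in all 6, which the removal of such sites as putative SNPs, before deposition, sets. The 222 sites include the second set of sequences above. The SNX5 site of the non-coding isoform was edited in 7.69% and 5.56% of reads, the SEC14L1 site in 4.76% and 8.33%, and the SEC23A site in 4.67% and 7.89%. The VPS4B site had 7.25% and 4.05% and the VPS35 site 8.16% and 2%. These sites were chosen for their high fractions, so that they exceed the median fraction follows from the choice. The number of reads behind them is not given. The VPS37C site (4.35% and 4.76%) is the only site of that gene listed in either RBFOX2-INSCRIBE library, and the gene had more edited Cs in the enzyme-only control (8 and 3). The distance to UGCAUG was measured on the first listed isoform of each site, and none of the 8 lay within 50 nt of a copy there. The VPS4B and VPS37C sites were in isoforms with no copy. For the SNX5 3′ UTR site, ENST00000377759 holds no copy. Its other listed isoform, ENST00000484809, does hold one, and the distance there was not measured.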

How the data were processed

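The 6 deposited tables list, for each isoform, positions with a C-to-U edit and the edit fraction, the share of reads edited, as the authors computed it. Per the methods and the submitters' notes, the authors built consensus reads with ccs 8.0.0, skera 1.2.0, lima 2.9.0 and refine 4.1.1, aligned them to hg38 with pbmm2 1.13.0, dropped reads of quality under 20 or on the wrong strand, assigned unique reads to isoforms with IsoQuant 3.3.0, and removed edits found in every sample and dbSNP positions. The annotation release behind the isoforms is not given in the sources used here. The files hold no read numbers, so depth is not given, and the study's read coverage filter of 20 could not be applied.

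Isoforms were named, and their Cs, regions and sequences read, with GENCODE release 44. Distinct edited Cs on the transcript strand were counted per gene and isoform; between 33 and 71 member edits a library on the other strand were left out. Log2 of (edited Cs + 0.5) per C was compared with limma 3.58.1 (trend, robust, Benjamini-Hochberg over every feature whose 4 libraries averaged 5 or more edited Cs), in R 4.3.3, and tested on simulated data. UGCAUG was sought within 50 nt in the spliced transcript with Python 3.11.15. Replicate numbers follow the titles; the characteristics number the enzyme-only libraries 1 and 2.

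Named genes were the 5 largest (called and not overlapping where 5 were called) and the 3 lowest log2 differences of each comparison, the 8 COPI subunits, the 5 with the most edited Cs in RBFOX2-INSCRIBE, the most and least edited tested gene of each role group, and isoforms called or above the line (at most 8); sites and motif copies were the top 8 and the top 6 with ties. Other genes named in the text were chosen after their values were seen. Members and lists were chosen with earlier results of these data known. Alternatives covered the pseudocount, the minimum of edited Cs, scaling, all groups in 1 fit, both strands, a minimum edit fraction, a replicate block, the motif window and its background, and each library in turn. Expression of the isoforms was not analysed here.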

Additional observations from a re-analysis of the deposited data

How the results depend on the processing

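Of the alternatives other than left-out libraries, 60 results stayed near their value or count and 30 moved. With a library left out, 30 stayed and 16 moved. Counts of 0 calls that stayed at 0 are among those that stayed. Scaling to the same total of edited Cs left 0 called member genes and isoforms in both comparisons with the buffer-only control. Over all features it left 58 of 4854 genes and 99 of 5386 isoforms called for RBFOX2-INSCRIBE. Between the controls it left 0 of 4175 and 0 of 4387. It moved the median log2 difference of member genes to 0.0927 for RBFOX2-INSCRIBE against the enzyme-only control. For RBFOX2-INSCRIBE against the buffer-only control that median moved to 0.21, and SNX17 turned to -1.44. For that last comparison, a minimum edit fraction of 0.02 gave 8 called genes of 20, beside 634 of 1825 over all genes. It gave 9 called isoforms of 17, beside 593 of 1650 over all isoforms. The median was 1.93 at that minimum edit fraction and 1.55 with a minimum mean of 1 edited C. Between the controls, member calls were 0 for genes and isoforms with a minimum edit fraction of 0.02, where 0 of 1027 genes and 0 of 738 isoforms were called. With a minimum mean of 10 they were 0 for both, beside 2 of 2718 genes and 7 of 2678 isoforms. They were 0 for isoforms with a minimum mean of 1, beside 6 of 8087. With all groups in 1 fit they were 3 for both, beside 62 of 4216 genes and 78 of 4447 isoforms. Against the enzyme-only control, 1 member isoform, VPS37A ENST00000324849, was called with a pseudocount of 1, a minimum mean of 10 or a replicate block. Over all isoforms these settings called 60 of 5725, 39 of 3867 and 69 of 5725. The line selected 2 of 35 isoforms at 2 SD, where 4.17% of all were selected. It selected 1 of 56 with no minimum edit fraction (5.71% of all). When isoforms edited in any of the 4 libraries entered, it selected 8 of 87 (6.70% of all). The UGCAUG ratio was 2.09, 1.18 and 1.19 (RBFOX2-INSCRIBE, enzyme-only, buffer-only) at a minimum edit fraction of 0.02, 0.88 and 0.76 in the controls with a window of 25 nt, and 1.25 and 0.99 (RBFOX2-INSCRIBE, enzyme-only) against Cs of the same isoform and region, which was chosen after seeing the data.

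With each library left out in turn, called genes ranged from 0 to 21 against the enzyme-only control, from 0 to 24 for RBFOX2-INSCRIBE against the buffer-only control and stayed at 0 between the controls; called isoforms ranged from 0 to 20, from 1 to 24 and stayed at 0. The median for RBFOX2-INSCRIBE against the buffer-only control ranged from 1.52 to 1.76. Member isoforms above the line ranged from 2 of 39 to 6 of 43, where between 5.79% and 7.15% of all isoforms were selected. Signs changed for SNX17 (-0.25 to 0.30) and COPE (-0.44 to 0.10) in that comparison, and between the controls for SEC61A1 (-1.44 to 0.88) and VPS37B (-0.97 to 0.31). The cause of these changes was not tested. Nothing in the labels says that the replicate numbers of the characteristics pair the libraries, and 2 pairs cannot settle it: differences between replicates correlated by 0.110, 0.0453 and -0.0269 over all genes in the 3 comparisons and by 0.545, 0.180 and 0.262 over the members. With that number as a replicate block, called member genes were 0 of 52, 32 of 49 and 1 of 44. Over all genes they were 29 of 5092, 2877 of 4807 and 8 of 4216. Called member isoforms were 1 of 57, 32 of 52 and 1 of 46. Over all isoforms they were 69 of 5725, 2989 of 5366 and 12 of 4447. Where a gene is listed at 0 or with a few edited Cs, the lack of read numbers limits what its value can show.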
